A study of Mus musculus with 10 samples.

Results

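The 9 genes described here encode the enzymes and cofactors that write, copy and remove DNA methylation: Dnmt1 and Uhrf1 (maintenance), Dnmt3a, Dnmt3b and Dnmt3l (de novo methylation), Tet1, Tet2 and Tet3 (oxidation of methylcytosine) and Tdg (excision of oxidized bases). They were taken by symbol from the 36066 genes of the deposited table, with no threshold on their values, and all 9 passed the filter on low values and were tested. RNA of C57BL6 mouse cells was sequenced in 10 libraries, 2 of each of 5 groups. ESCs were female embryonic stem cells from fertilized blastocysts, and pESCs were parthenogenetic embryonic stem cells from activated oocytes, whose genome is maternal alone. Both kinds came from mice that carry Actin-GFP. Below, the fertilized and the parthenogenetic line mean these kinds, whatever the number of lines derived. ESC-PGCLCs and pESC-PGCLCs were primordial germ cell-like cells made from these lines, through 2 days as epiblast-like cells (EpiLCs) and 4 days of culture in which BMP4 was given at 500 ng/ml, SCF at 100 ng/ml, EGF at 50 ng/ml and LIF at 1000 IU, and were sorted for SSEA1 and CD61. PGCs were primordial germ cells of female gonads, taken either by a sort for CD61 and SSEA1 or with beads for SSEA1 alone. The study's methods give both ways and do not say which was sequenced. They also describe PGCs of 2 embryonic days, and the labels give no embryonic day or number of embryos for these libraries. How many independent lines or clones stand behind the stem cells is not given either, and the EpiLC step was not analysed here. The protocol text attached to every library also describes crotonic acid and other starting cells, which no title or cell type of these libraries names.

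DNMT1 copies methylation onto the new strand after replication, and UHRF1 brings it to CpG sites that are methylated on the old strand alone. DNMT3A and DNMT3B methylate unmodified CpG sites, and DNMT3L, which has no catalytic activity of its own, stimulates them. TET enzymes oxidize methylcytosine stepwise, and TDG cuts out the most oxidized forms for base excision repair. Primordial germ cells are known for losing most of their DNA methylation, imprints included, before the germ line sets up a new pattern. No methylation value was used here, so all statements below are about transcript levels.

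Values are TPM, a transcript abundance that divides reads by the exon length of a gene and scales every library to the same total. Whole reads could be recovered from the TPM and the exon lengths, 6779837 to 18572900 a library, with the ESC-PGCLC libraries the shallowest, and the members had from 0 (Dnmt3l) to 3695 (Tet1) reads in a library. The labels do not say that the 2 replicates of a group were separate cultures or embryo pools, so p-values measure the spread between these libraries. The study's methods name serum with LIF for keeping the stem cells and t2iL, a medium with kinase inhibitors, for the passages before EpiLC induction, and do not say which the sequenced cells had. Feeder cells were used for both lines. The summed level of 10 germ cell markers was 402 to 925 TPM in stem cells and 5430 to 7880 TPM in PGCLCs and PGCs, while that of 7 pluripotency markers was 637 to 1040 TPM against 136 to 222 TPM. Pou5f1, a defining gene of both states, was at 7.49 to 23.5 TPM in stem cells and at 0 to 3.14 TPM in the germ-line libraries. Not every marker followed its sum. Sox2 was at 32.7 to 62.4 TPM in stem cells, but at 97.3 and 110 TPM in ESC-PGCLCs and 83.4 and 75.1 TPM in PGCs. In pESC-PGCLCs Sox2 was at 23.9 and 29.7 TPM. Prdm14, a germ cell marker, was at 10.9 to 18.1 TPM in stem cells and 13.8 to 21.7 TPM in the others. Nanog and Zfp42 made up most of the pluripotency sum in stem cells, and Dppa3 most of the germ cell sum in every library. Markers of other cells moved with the groups too. Those of gonadal somatic cells (7 of 8 listed genes were in the table) summed to 3.79 to 4.80 TPM in stem cells, 15.7 to 19.9 in ESC-PGCLCs, 34.4 to 39.6 in pESC-PGCLCs and 68.4 to 77.1 in PGCs, and Nr5a1 was at 0 in all stem cell libraries. Embryonic globins and other blood genes summed to at most 4.44 TPM in stem cells, 462 to 527 in ESC-PGCLCs, 2792 to 3303 in pESC-PGCLCs and 1883 to 2086 in PGCs, with Ptprc, which marks white blood cells, at no more than 0.103 TPM in any library. The 8 fibroblast markers summed to at most 0.477 TPM in stem cells and to 3.82 to 11.1 TPM in the others, and the 7 mesoderm and endoderm markers to 1.34 to 3.95 and 8.28 to 20.3 TPM. The part of such cells in the results below was not tested, and in bulk RNA fewer cells of a type and less RNA per cell cannot be told apart.

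In the step from stem cells to the germ line the maintenance pair moved in opposite directions and the de novo genes changed places. Dnmt1 and Dnmt3a rose, while Uhrf1, Dnmt3b, Dnmt3l and Tdg fell, in PGCLCs of both origins. Genes were called at an adjusted p under 0.05 (limma, Benjamini-Hochberg over 27259 genes) with a change of at least 2-fold on the log2(TPM + 1) scale. By this rule 6 of 9 members were called in ESC-PGCLCs against ESCs, where 29.8% of all tested genes were called, and 6 of 9 in pESC-PGCLCs against pESCs, where 27.6% were called. In PGCs against the mean of both stem cells 5 of 9 were called, against 33.3% of all genes. In each of the 3 comparisons 2 members rose, where 15.3%, 20.8% and 25.3% of all genes rose, and 4, 4 and 3 fell, where 14.5%, 6.8% and 8.06% fell. The libraries of the compared groups did not overlap for 8, 9 and 8 members, against 70.9%, 69% and 61.2% of all tested genes. With 2 libraries against 2, an exact permutation test cannot go below p = 0.333 (two-sided), and 2 against 4 cannot go below 0.0667, and the adjusted p-values therefore depend on how limma models variance. The 3 comparisons are not independent, because PGCs were compared with the same stem cell libraries.

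**Figure D1:**
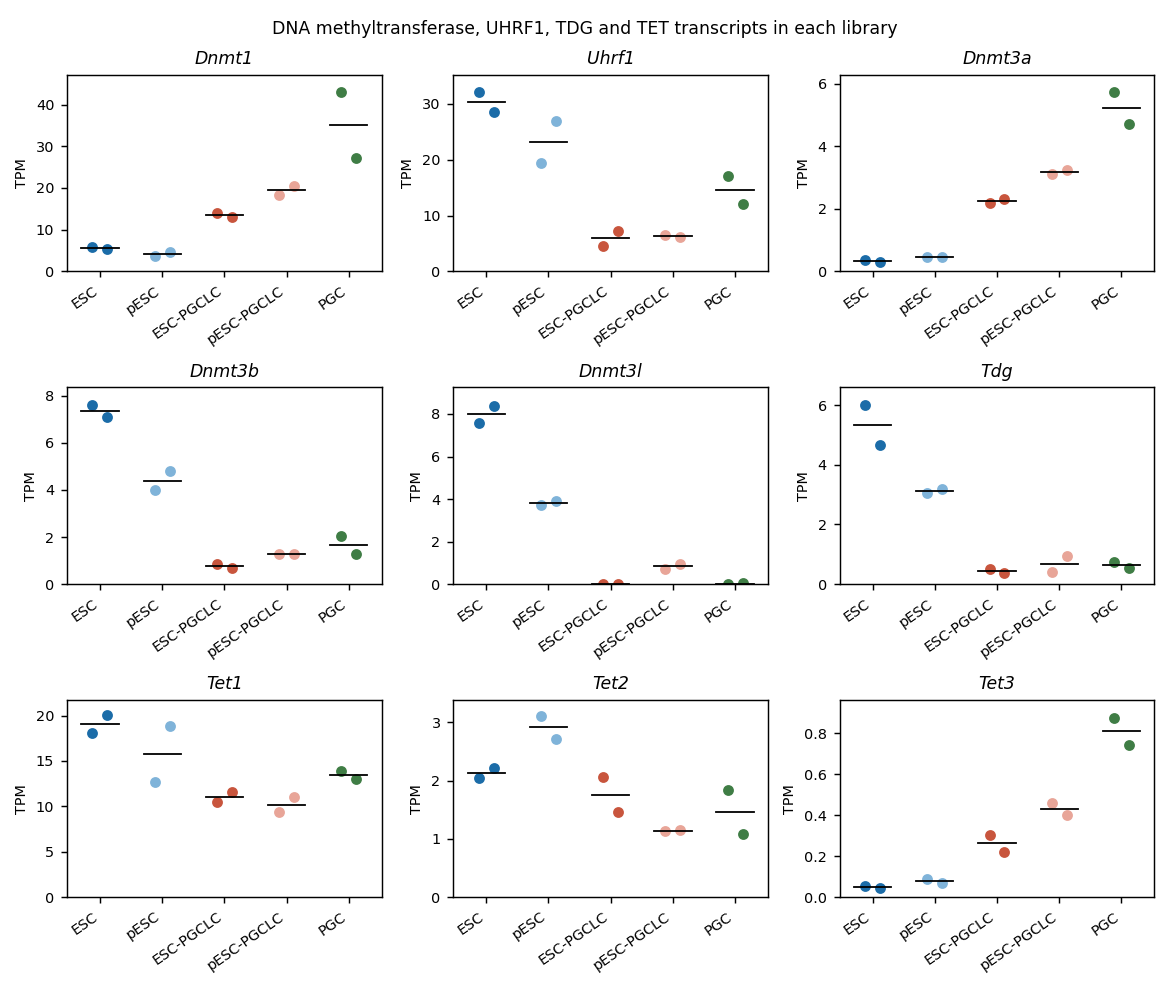
TPM of the 9 genes (a panel each, linear axes from 0) in the 10 libraries, with 1 point for each library and a line at the group mean. Dnmt1, Dnmt3a and Tet3 are lowest in ESCs and pESCs and highest in PGCs, while Uhrf1, Dnmt3b, Dnmt3l and Tdg are highest in ESCs.

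The maintenance genes are described first. The stretch of 250 bases before the annotated start with the most CpG sites is printed for Dnmt1 and Uhrf1 because both encode the maintenance machinery and yet moved in opposite directions (RefSeq starts on GRCm38.p6, CpG in capitals, 5′ to 3′ on the gene's strand). Dnmt1 lies on chr9:20907209-20959888, minus strand, and Uhrf1 on chr17:56303321-56323486, plus strand (GENCODE gene spans, GRCm38).
Dnmt1, chr9:20952624-20952873, minus strand: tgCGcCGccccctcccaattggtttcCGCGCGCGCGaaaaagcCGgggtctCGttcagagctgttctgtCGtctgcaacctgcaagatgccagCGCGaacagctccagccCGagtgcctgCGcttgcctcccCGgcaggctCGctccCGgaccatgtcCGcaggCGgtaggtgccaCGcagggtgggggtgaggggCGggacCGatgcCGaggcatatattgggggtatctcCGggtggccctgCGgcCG
Uhrf1, chr17:56304063-56304312, plus strand: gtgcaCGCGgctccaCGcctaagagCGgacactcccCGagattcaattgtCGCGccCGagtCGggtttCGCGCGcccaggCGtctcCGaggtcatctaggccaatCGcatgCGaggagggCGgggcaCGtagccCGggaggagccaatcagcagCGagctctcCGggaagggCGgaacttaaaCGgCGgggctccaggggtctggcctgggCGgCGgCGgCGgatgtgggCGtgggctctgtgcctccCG
These windows hold 26 and 30 CpG, more than 90.4% and 94.1% of 32851 promoter windows of this length, whose median is 6. Each holds TTTCGCGC once (both strands searched), a form of the letters bound by E2F factors of the G1 to S transition. This form occurs in 0.256% of all windows, and any of the 4 E2F forms searched in 1.96%. The form contains CpG and the printed windows were chosen for their CpG, so all windows are not a matched background. Dnmt1 has other annotated starts, whose windows hold 2 and 7 CpG, and Uhrf1 has another with 10. Both printed windows lie inside the gene spans, downstream of these other starts, and are transcribed when those starts are used. They are therefore not upstream sequence alone, and their CpG counts can include exon or intron sequence. TPM summed over all starts, so the files do not tell which start was used.

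Dnmt1 was at 5.74 and 5.25 TPM in ESCs and at 3.78 and 4.55 TPM in pESCs. It was at 14.1 and 13.0 TPM in ESC-PGCLCs, at 18.4 and 20.4 TPM in pESC-PGCLCs and at 43.0 and 27.3 TPM in PGCs. All germ-line libraries were above all stem cell libraries, and no neighbouring groups in the order of levels overlapped. The rise was 1.16 (SE 0.22) on the log2 scale in ESC-PGCLCs against ESCs (adjusted p = 0.00278) and 1.98 (SE 0.22) in pESC-PGCLCs against pESCs (adjusted p = 0.000213). In PGCs against the stem cells it was 2.61 (SE 0.19, adjusted p = 1.43e-05), which is 6.10-fold on the scale of TPM + 1.

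Uhrf1 took the other direction. It was at 32.2 and 28.5 TPM in ESCs and at 19.5 and 26.9 TPM in pESCs, and at 4.59 and 7.21 TPM in ESC-PGCLCs and 6.51 and 6.19 TPM in pESC-PGCLCs. PGCs stood between, at 17.1 and 12 TPM, below every stem cell library and above every PGCLC library. Uhrf1 fell by 2.21 (SE 0.25) in ESC-PGCLCs (adjusted p = 0.000213) and by 1.70 (SE 0.25) in pESC-PGCLCs (adjusted p = 0.000968). In PGCs the difference from stem cells was -0.83 (95% interval -1.34 to -0.33, adjusted p = 0.0117), which is under 2-fold and was not called, although centring, quantile normalization and voom on recovered reads called it (-1.59, -1.43 and -1.14), as did the fit without PGC replicate 1 (-1.07). Of the Uhrf1 transcripts' 100-base stretches, 5.53% also occur in another gene, Gm5648, and reads from these cannot be assigned with certainty.

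The proportion between both genes followed. Uhrf1 TPM divided by Dnmt1 TPM was 5.61 and 5.44 in ESCs and 5.15 and 5.90 in pESCs. It was 0.326 and 0.555 in ESC-PGCLCs, 0.353 and 0.304 in pESC-PGCLCs and 0.397 and 0.441 in PGCs. A ratio within a library does not depend on how libraries are scaled to each other, and it shows unequal change, not which of the genes changed. Every stem cell library stood above every germ-line library. The read counts behind it were 93 to 1444 for Uhrf1 and 245 to 2025 for Dnmt1.

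**Figure D2:**
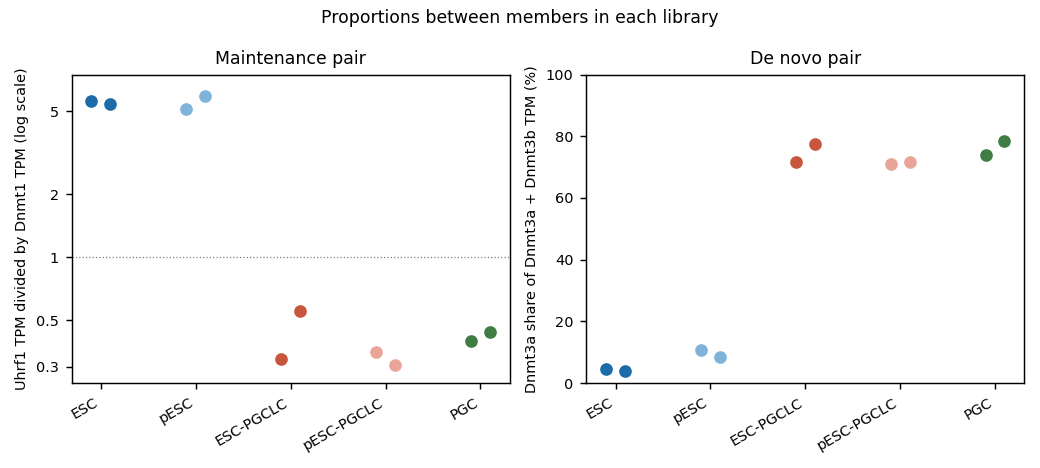
Left, Uhrf1 TPM divided by Dnmt1 TPM in each library (log axis, dotted line at 1), and right, the share of Dnmt3a in the summed TPM of Dnmt3a and Dnmt3b (percent, axis from 0 to 100), with 1 point for each library. The ratio is 5.15 to 5.90 in stem cells and 0.304 to 0.555 in the germ-line libraries, and the share is 4.02% to 10.6% against 71.0% to 78.3%.

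The de novo methyltransferase genes Dnmt3a (chr12:3806007-3914443, plus strand) and Dnmt3b (chr2:153649450-153687730, plus strand) exchanged rank. Dnmt3a was at 0.372 and 0.298 TPM in ESCs and 0.472 and 0.451 TPM in pESCs. It was at 2.20 and 2.32 TPM in ESC-PGCLCs, 3.10 and 3.25 TPM in pESC-PGCLCs and 5.72 and 4.70 TPM in PGCs. The germ-line libraries all lay above the stem cell libraries, in the same order of groups as for Dnmt1 apart from the stem cells, where pESCs were above ESCs. The rise was 1.29 (SE 0.16) in ESC-PGCLCs (adjusted p = 0.000379) and 1.51 (SE 0.16) in pESC-PGCLCs (adjusted p = 0.000207). It was 2.15 (SE 0.14) in PGCs against stem cells (adjusted p = 9.83e-06), and the ratio of mean TPM there was 13.1, because a pseudocount of 1 TPM shrinks the change of a gene this low.

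Dnmt3b was at 7.61 and 7.12 TPM in ESCs and 3.99 and 4.81 TPM in pESCs. It was at 0.865 and 0.674 TPM in ESC-PGCLCs, 1.26 and 1.29 TPM in pESC-PGCLCs and 2.03 and 1.30 TPM in PGCs. Every germ-line library was below every stem cell library. Dnmt3b fell by 2.24 (SE 0.19) in ESC-PGCLCs (adjusted p = 5.1e-05), by 1.24 (SE 0.19) in pESC-PGCLCs (adjusted p = 0.00123) and by 1.35 (SE 0.17) in PGCs (adjusted p = 0.000231). In 4.47% of its 100-base stretches Dnmt3b shares sequence with Dnmt3c, a germ-line paralog. As a share of the summed TPM of Dnmt3a and Dnmt3b, Dnmt3a was 4.66% and 4.02% in ESCs, 10.6% and 8.56% in pESCs, 71.8% and 77.5% in ESC-PGCLCs, 71.0% and 71.6% in pESC-PGCLCs and 73.8% and 78.3% in PGCs. The sum itself was 7.98 and 7.42 TPM in ESCs and 7.74 and 6.0 TPM in PGCs, and 2.99 to 5.26 TPM in the other libraries. Exon lengths of 16642 nt (Dnmt3a) and 5106 nt (Dnmt3b) enter these shares, since TPM divides by them.

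Dnmt3l (chr10:78041947-78063622, plus strand), the gene of the cofactor, had the widest range of the members and reached 0. It was at 7.59 and 8.39 TPM in ESCs (209 and 298 reads) and 3.73 and 3.90 TPM in pESCs (98 and 101 reads). No read was recovered in ESC-PGCLC replicates 1 and 2, where 3 reads would be 0.211 and 0.247 TPM. The pESC-PGCLCs were at 0.707 and 0.960 TPM (18 and 27 reads), and PGCs at 0 and 0.0370 TPM (0 reads and 1 read). ESCs were thus at least 34.9-fold higher than ESC-PGCLCs, taking 3 reads in each ESC-PGCLC library as the floor. The fitted change was -3.17 (SE 0.16, adjusted p = 5.07e-06) and depends on the pseudocount. In pESC-PGCLCs against pESCs Dnmt3l fell by 1.40 (SE 0.16, adjusted p = 0.000276), and in PGCs against stem cells it was called lower (-2.69, SE 0.14, adjusted p = 3.57e-06), with a share of all recovered reads 334 times as high in stem cells (95% exact interval 59.8 to 13219, counting error alone). Aire lies on the opposite strand over part of Dnmt3l, and the counting is not stated to use strand.

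The promoter windows of Dnmt3b and Dnmt3l are printed because the enzyme gene and its cofactor gene fell together in every germ-line group while their windows differ in CpG. The window with the most CpG of each is shown (same build and capitals).
Dnmt3b, chr2:153649199-153649448, plus strand: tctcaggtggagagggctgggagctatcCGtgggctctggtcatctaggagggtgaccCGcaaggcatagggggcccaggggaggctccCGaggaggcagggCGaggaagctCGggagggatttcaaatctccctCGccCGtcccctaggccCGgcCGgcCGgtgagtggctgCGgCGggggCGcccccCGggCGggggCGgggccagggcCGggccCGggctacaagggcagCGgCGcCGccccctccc
Dnmt3l, chr10:78042037-78042286, plus strand: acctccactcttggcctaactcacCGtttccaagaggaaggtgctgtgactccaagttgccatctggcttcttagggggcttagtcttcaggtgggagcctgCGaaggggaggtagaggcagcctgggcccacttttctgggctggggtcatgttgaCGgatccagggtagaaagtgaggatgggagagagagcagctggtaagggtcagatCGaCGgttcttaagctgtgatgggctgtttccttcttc
The Dnmt3b window holds 21 CpG and that of Dnmt3l 5, which is fewer than the median of 6 over all windows. The Dnmt3l window lies inside the gene span given above, so it can hold transcribed sequence. Neither holds any of the 4 E2F forms searched (TTTGGCGC, TTTCCCGC, TTTCGCGC and TTTGGCGG, both strands), which 1.96% of all windows hold, and GGGCGG, the core of the GC box, occurs 3 times in the Dnmt3b window, 0 times in that of Dnmt3l and in 32.7% of all windows. Among the other members Tet2 had 51 CpG, the most, and Dnmt3a 40, Tdg 19, Tet3 17 and Tet1 15.

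Tdg (chr10:82629828-82650799, plus strand) was at 6.0 and 4.66 TPM in ESCs and 3.05 and 3.20 TPM in pESCs. It was at 0.509 and 0.366 TPM in ESC-PGCLCs, 0.415 and 0.929 TPM in pESC-PGCLCs and 0.758 and 0.536 TPM in PGCs. All germ-line libraries were below all stem cell libraries, on 8 to 47 reads each. Tdg fell by 2.13 (SE 0.21, adjusted p = 0.000105) in ESC-PGCLCs, by 1.32 (SE 0.21, adjusted p = 0.00145) in pESC-PGCLCs and by 1.63 (SE 0.18, adjusted p = 0.000135) in PGCs. Its level is uncertain, since 27.3% of the 100-base stretches of its transcripts also occur elsewhere, in Gm5597, Tdg-ps and the overlapping gene Glt8d2.

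On the log2(TPM + 1) scale the Tet genes showed smaller differences than the members above, and in unlike directions. For Tet3 this depends on the pseudocount, since its ratios of mean TPM were 5.37, 5.44 and 12.7. Tet1 (chr10:62804570-62908996, minus strand), a TET enzyme of embryonic stem cells, held 79.8% to 89.9% of the summed TPM of the 3 Tet genes in every library. It was at 18.1 and 20.1 TPM in ESCs, 12.6 and 18.9 TPM in pESCs, 10.5 and 11.6 TPM in ESC-PGCLCs, 9.31 and 11.0 TPM in pESC-PGCLCs and 13.9 and 13.0 TPM in PGCs. PGCLCs were below the stem cells of their own line, and PGCs overlapped with pESCs. The difference was -0.74 (95% interval -1.20 to -0.28, adjusted p = 0.016) in ESC-PGCLCs, -0.56 (-1.02 to -0.11, adjusted p = 0.0493) in pESC-PGCLCs and -0.33 (-0.73 to 0.06, adjusted p = 0.134) in PGCs, all under 2-fold. The lower levels in pESC-PGCLCs and PGCs were called under centring (-1.29 and -1.09) and quantile normalization (-1.16 and -1.02).

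Tet2 (chr3:133463679-133545139, minus strand) was at 2.05 and 2.21 TPM in ESCs, 3.12 and 2.72 TPM in pESCs, 2.06 and 1.46 TPM in ESC-PGCLCs, 1.13 and 1.15 TPM in pESC-PGCLCs and 1.83 and 1.08 TPM in PGCs. It was highest in pESCs, and the order below them was resolved only in part, since each neighbouring pair from ESCs downwards overlapped. Both ESC libraries were above all PGC and pESC-PGCLC libraries, and both ESC-PGCLC libraries were above both pESC-PGCLC libraries. The difference was -0.87 (95% interval -1.35 to -0.39, adjusted p = 0.0101) in pESC-PGCLCs against pESCs and -0.19 (-0.67 to 0.29, adjusted p = 0.492) in ESC-PGCLCs against ESCs, and neither was called. In PGCs against stem cells it was -0.53 (95% interval -0.95 to -0.11, limma adjusted p = 0.0358), under 2-fold and not called. Whether Tet2 responds differently in the 2 lines was not resolved (interaction -0.68, 95% interval -1.36 to 0.004, adjusted p = 0.146), and it was called under centring (-1.42), quantile normalization (-1.12) and voom on recovered reads (-1.28). The lower level in pESC-PGCLCs was also called under these 3 (-1.60, -1.45 and -1.64) and with a pseudocount of 0.1 TPM (-1.28).

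Tet3 (chr6:83362373-83459084, minus strand), the TET enzyme of the oocyte and zygote, was the lowest of the Tet genes. It was at 0.0520 and 0.0453 TPM in ESCs and 0.0886 and 0.0691 TPM in pESCs, on 8 to 13 reads. It was at 0.302 and 0.221 TPM in ESC-PGCLCs, 0.457 and 0.401 TPM in pESC-PGCLCs and 0.873 and 0.743 TPM in PGCs, on 15 to 112 reads. The 5 groups did not overlap in this order, which follows that of Dnmt3a apart from scale. On the log2(TPM + 1) scale the differences were 0.27, 0.41 and 0.76, under 2-fold and not called, but the ratios of mean TPM were 5.37, 5.44 and 12.7. With a pseudocount of 0.1 TPM the values were 1.27, 1.56 and 2.47 and with voom on recovered reads 2.32, 2.11 and 3.39, all called, whereas centring libraries on their median gave 0.28, -0.32 and 0.005, so the second changed sign.

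**Figure D3:**
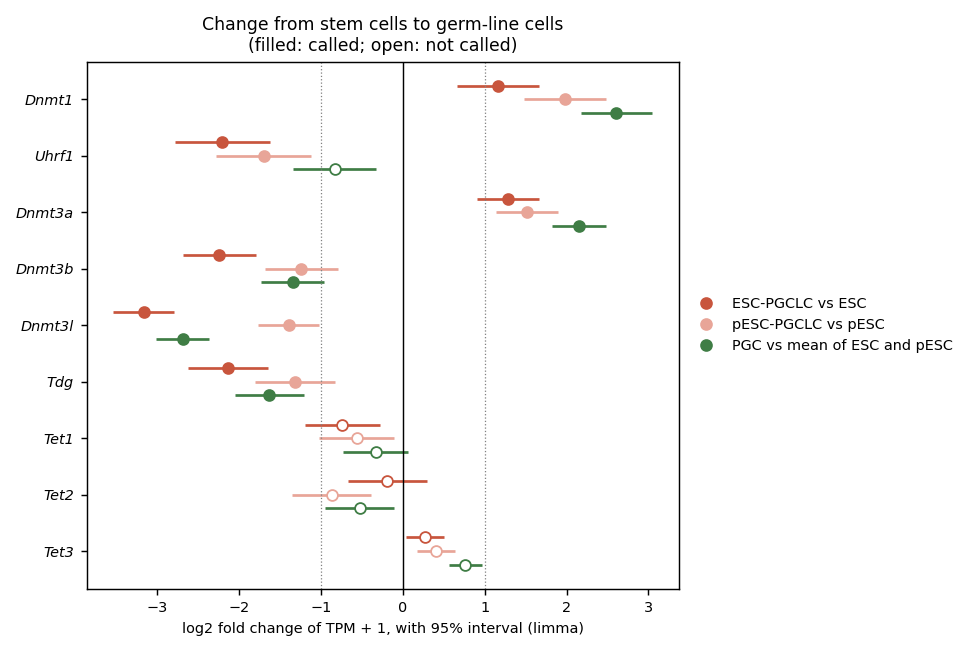
log2 fold change of TPM + 1 with its 95% interval (limma, from the variances of all 10 libraries) for each gene in the 3 comparisons of germ-line cells with stem cells. Filled points were called, open points were not, and dotted lines mark a 2-fold change. Dnmt1 and Dnmt3a lie to the right and Uhrf1, Dnmt3b, Dnmt3l and Tdg to the left, with Uhrf1 in PGCs (-0.83) not called. With centred libraries Tet3 lay at -0.32 in pESC-PGCLCs against pESCs.

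The scale of a library bears on these values. When libraries were centred on their median over 9024 genes (those never under 1 TPM), the median change of all tested genes on the log2 scale went from 0.22 to -0.51 in pESC-PGCLCs against pESCs and from 0.28 to -0.48 in PGCs against stem cells, but from 0.05 to 0.06 in ESC-PGCLCs against ESCs. With centred libraries the changes in pESC-PGCLCs were 1.25 for Dnmt1, 0.78 for Dnmt3a (no longer 2-fold), -2.43 for Uhrf1, -1.97 for Dnmt3b, -2.13 for Dnmt3l and -2.05 for Tdg. For PGCs they were 1.85, 1.39, -1.59, -2.11, -3.45 and -2.39 in the same order. Tet2 was called lower under centring in both comparisons, at -1.60 and -1.29, as was Tet1. Transcript length moved with the comparisons as well. Genes with exons of 4522 nt or more had a median log2 fold change of 0.57 in ESC-PGCLCs against ESCs, 0.95 in pESC-PGCLCs and 1.23 in PGCs, whereas genes of at most 1843 nt had -0.23, 0.16 and 0.15. Dnmt1, Dnmt3a and all Tet genes are in the long class, and so are Dnmt3b and Tdg, which fell. Whether length has a part in the members' changes was not tested.

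**Figure D4:**
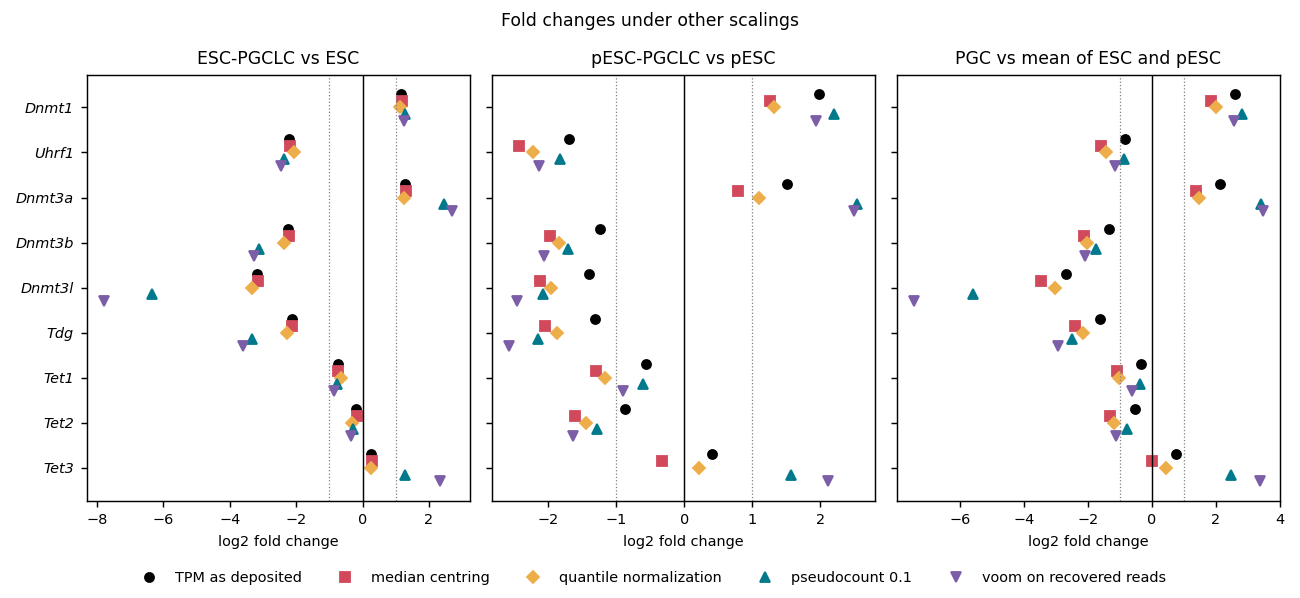
log2 fold change of each gene in the 3 germ-line comparisons with TPM as deposited and with 4 other treatments of the values (markers), with dotted lines at a 2-fold change. Dnmt1 and Dnmt3a stay to the right of 0 and Uhrf1, Dnmt3b, Dnmt3l and Tdg to the left under all 5, while Tet3 ranges from -0.32 to 3.39.

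The comparison of pESCs with ESCs sets parthenogenetic cells beside cells from fertilized embryos, and with an unknown number of lines of each kind the origin of the genome and the line cannot be told apart. By limma none of the 9 members was called in pESCs against ESCs, where 0.781% of all genes were called. An unadjusted p under 0.05 was found for 3 members and 17.7% of all genes. Voom on recovered reads called 0 members and 1.69% of all genes. Dnmt3l had the smallest adjusted p, at 3.73 and 3.90 TPM against 7.59 and 8.39 TPM, with a difference of -0.90 (SE 0.16, adjusted p = 0.0484) that is under 2-fold. Dnmt3b (-0.63, 95% interval -1.08 to -0.19, adjusted p = 0.131) and Tdg (-0.61, -1.10 to -0.12, adjusted p = 0.177) were also lower by unadjusted p. The libraries did not overlap for 8 of 9 members, against 43% of all genes, and only Tet1 overlapped. Dnmt1 and Tet1 were lower in pESCs with TPM as deposited (-0.33 and -0.29) and about equal after centring (0.002 and 0.05).

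Between the PGCLCs of both origins 0 of 9 members were called by limma, where 13.4% of all genes were called. An unadjusted p under 0.05 was found for 1 member and 35.3% of all genes. Voom on recovered reads called 1 member, Dnmt3l, and 17.4% of all genes. The 45 Dnmt3l reads of the pESC-PGCLCs stood against 0 reads in ESC-PGCLCs, at least 3.64-fold more by the floor of 3 reads in each library. Its fitted difference was 0.87 (SE 0.16, adjusted p = 0.00641) with a pseudocount of 1 TPM and 3.21 with 0.1 TPM. Dnmt1 (0.49, 95% interval -0.01 to 0.99) and Dnmt3a (0.36, -0.02 to 0.74) were higher in each pESC-PGCLC library than in each ESC-PGCLC library without passing the test, and centring took these to 0.08 and -0.05. The libraries did not overlap for 6 of 9 members, against 59.7% of all genes.

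The change from stem cell to PGCLC differed between the lines for 2 of 9 members by the interaction term, where 19.1% of all genes were called. Dnmt3l changed by 1.77 (SE 0.23, adjusted p = 0.00149) less far down in the parthenogenetic line, and Dnmt3b by 1.00 (SE 0.27, adjusted p = 0.0336). Both started lower in pESCs and ended higher in pESC-PGCLCs. The Dnmt3l value depends on the pseudocount because ESC-PGCLCs had no read, and the Dnmt3b call was lost under centring (0.26), quantile normalization (0.53) and with voom on recovered reads (1.22, adjusted p = 0.0848). It was also lost without any 1 of the 8 libraries except pESC replicate 2 (0.89 to 1.11).

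PGCs were compared with each kind of PGCLC to ask how the cultured cells differ from those of the embryo. Against ESC-PGCLCs 2 of 9 members were called, where 13.8% of all genes were called: Dnmt1 rose by 1.28 (SE 0.22, adjusted p = 0.00493) and Uhrf1 by 1.18 (SE 0.25, adjusted p = 0.0113). Dnmt3a (0.93, SE 0.16, adjusted p = 0.0057) and Tet3 (0.52, SE 0.10, adjusted p = 0.00764) were under 2-fold with a pseudocount of 1 TPM, and the ratios of mean TPM were 2.31 and 3.09. Both were called with a pseudocount of 0.1 TPM (1.17 and 1.33) and with voom on recovered reads (1.07 and 1.46), and Dnmt3a also without PGC replicate 2 (1.04), whereas centring took them to 0.32 and -0.087. Without PGC replicate 1, the library with 43.0 TPM of Dnmt1 and 17.1 TPM of Uhrf1, 0 members were called, at 0.96 for Dnmt1 and 0.94 for Uhrf1, and both were also lost under centring (0.67 and 0.57), quantile normalization (0.85 and 0.61) and in a fit of the 2 groups alone. Without ESC-PGCLC replicate 1 the call of Uhrf1 was lost (0.90). Against pESC-PGCLCs 1 of 9 was called, against 3.67% of all genes: Uhrf1, at 1.06 (SE 0.25, adjusted p = 0.0437), which the replicate block took to adjusted p = 0.0598. Under centring and with a pseudocount of 0.1 TPM 1 member was called as well (4.09% and 3.47% of all genes), but it was Dnmt3l, not Uhrf1. This call of Uhrf1 was also lost without pESC-PGCLC replicate 1 (1.09) or 2 (1.03), without PGC replicate 1 (0.82), with no filter, with a pseudocount of 0.1 TPM and under both scalings. Dnmt3l was at 1 read in PGCs against 45 reads in pESC-PGCLCs, 39.4 times as frequent in the latter (95% exact interval 6.72 to 1589). Its fitted difference was -0.85 (SE 0.16, adjusted p = 0.0289), under 2-fold with a pseudocount of 1 TPM, and it was called lower under centring (-1.04), with a pseudocount of 0.1 TPM (-2.98) and with voom (-4.49). Dnmt1 was called higher without PGC replicate 2 (1.11). PGCs and ESC-PGCLCs were both under the floor for Dnmt3l, so no fold is given. The libraries did not overlap for 7 of 9 members in each of these comparisons, against 60% and 54% of all genes.

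Genes that work with the members were described from lists, by how many were called and by the median over the list. The median of all genes was 0.05 in ESC-PGCLCs against ESCs and 0.22 in pESC-PGCLCs against pESCs. Of all tested genes 15.3% rose and 14.5% fell in the first comparison, and 20.8% rose and 6.8% fell in the second. Several counts here and below are near these shares, such as 2 of 15 base excision repair genes rising in ESC-PGCLCs. No list was tested as a set. Of 10 maintenance and replication partners of DNMT1, 3 rose and 3 fell in ESC-PGCLCs (median -0.20) and 6 rose and 1 fell in pESC-PGCLCs (median 1.32, 2 and 3 with centred libraries). Uhrf2, the paralog of Uhrf1, rose where Uhrf1 fell, by 2.55 and 2.35, from means of 2.06 and 2.41 TPM to 16.9 and 16.1 TPM, and was at 23.3 TPM in PGCs. Hells, a chromatin remodeller needed for normal methylation, rose by 2.00 and 2.17, and Hdac1, a histone deacetylase, fell by 3.91 and 2.61. Of 12 regulators of the DNMT genes or proteins, 4 rose and 2 fell, and 7 rose and 1 fell in pESC-PGCLCs (3 and 2 centred), with medians of 0.34 and 1.27. Dppa3, whose product binds UHRF1 and is known to protect against or limit methylation in the germ line and zygote, rose by 3.95 and 2.59, from means of 366 and 791 TPM to 5654 and 4743 TPM. Kdm1b, a histone demethylase needed for maternal imprints, rose by 2.30 and 2.07, and Zfp57, which binds methylated imprinted regions, fell by 4.44 and 2.36.

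On the side of demethylation, 0 of 12 TET partners and cofactor genes rose and 6 fell in ESC-PGCLCs (median -0.52), and 3 rose and 2 fell in pESC-PGCLCs (median 0.19, 1 and 5 centred). Nanog, a partner of TET1 in stem cells, fell by 4.23 and 3.64. Of 15 base excision repair genes 2 rose and 4 fell, and 5 rose and 1 fell (2 and 2 centred), with medians of 0.01 and 0.61. Apex1, the endonuclease that follows TDG, was at means of 861 and 689 TPM in ESCs and pESCs and 86.3 and 300 TPM in their PGCLCs and fell by 3.31 in ESC-PGCLCs. Neil3, another glycosylase, rose by 2.48 and 2.39. Of 4 cytidine deaminases 2 and 3 fell and none rose (medians -1.80 and -1.84), among them Apobec2, which fell by 3.48 and 3.15. Of 8 readers of methylated CpG 2 and 5 rose and none fell (medians 0.39 and 1.19, with 2 and 1 rising after centring), Zbtb33, which encodes the reader Kaiso, by 3.38 and 2.99. Of 13 methionine cycle and folate genes 1 rose and 3 fell, and 2 rose and 2 fell (medians -0.70 and 0.07), with Mtr, methionine synthase, up by 1.96 and 2.17. Of 16 S phase genes 2 rose and 3 fell in ESC-PGCLCs and 6 rose in pESC-PGCLCs (medians -0.45 and 0.79, with 0 rising and 1 falling after centring).

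All 11 listed germ-line genes whose promoters are known to be methylated in somatic cells rose in PGCLCs of both origins and in PGCs against stem cells, also with centred and quantile-normalized libraries, with medians of 5.59, 5.83 and 5.28. Dazl went from means of 13.4 and 15.4 TPM in ESCs and pESCs to 1742 and 1100 TPM in PGCLCs, and Slc25a31 from 1.34 and 1.14 TPM to 458 and 419 TPM. This list overlaps with the germ cell markers used to check the labels.

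Several members had like patterns across the 10 libraries, though not like levels. On log2(TPM + 1), Pearson's r was 0.98 between Dnmt1 and Dnmt3a, 0.96 between Dnmt1 and Tet3, 0.98 between Dnmt3b and Tdg and 0.94 between Dnmt3b and Dnmt3l, and -0.90 between Dnmt3a and Dnmt3l. The points share 5 groups and the lengths and depths above, so these are descriptions of the group pattern. Among 14837 other genes, the most like Dnmt1 were C430049B03Rik, Baz1b and Dgcr2 (r of 0.995 each), and the most like Dnmt3a were Egr1, Rftn1 and Dvl2 (0.998, 0.997 and 0.997). Dnmt3b was followed most closely by Slc39a4, Mras and Btbd19 (0.998, 0.993 and 0.993), Dnmt3l by Gm43863, Fgfbp1 and Gnpda1 (0.994, 0.991 and 0.990), Uhrf1 by Amotl2, Scd2 and B3gnt9 (0.987, 0.981 and 0.979) and Tdg by Hyal1, Gm10451 and Gfpt2 (0.996, 0.995 and 0.993). By Spearman's rho Amotl2 stayed the first for Uhrf1, and Gnpda1 was at rank 641 for Dnmt3l. The Tet genes varied by less than 1 on the log2(TPM + 1) scale between groups and were not searched.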

How the data were processed

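RNA-seq of 10 mouse libraries in 5 groups of 2 was used. The authors aligned reads to mm10 with HISAT2, counted reads per gene and deposited TPM for all libraries in 1 table. The submitters' processing notes name Bowtie2, HISAT2, RSEM, DESeq2 and R 3.4.2. The labels and the paper's methods describe different library kits, and neither states how strand was treated. TPM steps gave whole reads for 95.7% to 96.4% of values (tolerance 0.05 reads) after 35859 of 36066 symbols had been matched to a single GENCODE M21 gene. Because TPM are not counts, log2(TPM + 1) of 27259 genes, those that reached 0.1 TPM in 2 or more libraries, was fitted with limma 3.58.1 (R 4.3.3; empirical Bayes with a mean trend, 5 group means, 5 residual degrees of freedom), as 1 fit over all libraries. P-values were adjusted by Benjamini-Hochberg within a comparison. Calls needed an adjusted p under 0.05 and at least 2-fold. The model was tried on simulated counts for pESCs against ESCs alone, with changes placed only in genes with many reads. It was not tried for genes with few reads, such as Dnmt3l, Tdg and Tet3 in some groups. Alternatives were a pseudocount of 0.1 TPM, a filter of 1 TPM, no filter, median centring, quantile normalization, the compared groups alone, a replicate block, no mean trend and leaving out each library. Voom on recovered reads and a minimum length of 200 nt were added after seeing the data. The 9 members were named by symbol, without a rule on their values, but members, markers and gene lists were chosen with earlier results of these data known. All members are named in every comparison, list genes only when called and among the 3 largest changes of a list and comparison, and the 3 genes most like each member with a range of at least 1 (log2). Promoter windows are 250 bases before RefSeq starts on GRCm38.p6. Counting intervals and floors (3 reads) cover counting error alone.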

Additional observations from a re-analysis of the deposited data

Results flagged for a closer look

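The change from stem cells to PGCLCs differed between the parthenogenetic and the fertilized line for Dnmt3l (a difference of 1.77 on the log2 scale, limma adjusted p = 0.00149) and Dnmt3b (1.00, adjusted p = 0.0336), by a test of the difference itself. That test called 2 of 9 members and 19.1% of all genes. For both genes each pESC-PGCLC library was above each ESC-PGCLC library and each pESC library was below each ESC library. With centred libraries the values were 1.03 for Dnmt3l, still called, and 0.26 for Dnmt3b, no longer called. The Dnmt3b call was also lost under quantile normalization, with voom on recovered reads and in most fits that left out a library. The Dnmt3l value depends on the pseudocount, because ESC-PGCLCs had no read.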

How the results depend on the processing

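Of 168 alternative values of the 6 members called in PGCLCs of both origins, 167 kept the call, and Dnmt3a in pESC-PGCLCs lost it under median centring (0.78). The members called went from 6 to 7 in ESC-PGCLCs against ESCs with a pseudocount of 0.1 and voom, which added Tet3. The share of all genes called there went from 29.8% to 44.1% and 45.4%. In pESC-PGCLCs against pESCs the members called went from 6 to 8 with a pseudocount of 0.1 and voom (Tet2 and Tet3 added). They also went to 8 with quantile normalization (Tet1 and Tet2 added) and to 7 with centring (Tet1 and Tet2 added, Dnmt3a lost). The share of all genes called went from 27.6% to 41.4%, 41.8%, 23.2% and 26.7% in this order. Over 71 results and 1040 alternative values 37 turned direction, 17 of them by centring, and 0 among the 22 called results. A filter of 1 TPM left Tet3 untested. Depth limits Tet3 in stem cells (8 to 13 reads) and Dnmt3l (0 to 27 reads) and Tdg (8 to 47 reads) in the germ-line libraries most.

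The number of members called between PGCLCs of both origins went from 0 to 1 with a pseudocount of 0.1 and with voom. The share of all genes called there went from 13.4% to 19.5% and 17.4%. In PGCs against ESC-PGCLCs the number of members went from 2 to 4 with both of these settings. It went to 0 with centring, quantile normalization and the compared groups alone (0 to 3 leaving out a library). The share of all genes called went from 13.8% to 22.5% and 17.9%, and to 9.96%, 6.99% and 0%. In PGCs against pESC-PGCLCs the number of members went from 1 to 0 with no filter, quantile normalization, the compared groups alone and the replicate block. It went to 2 with voom (0 to 2 leaving out a library). With centring and a pseudocount of 0.1 the 1 called was Dnmt3l in place of Uhrf1. The share of all genes called went from 3.67% to 2.14%, 3.26%, 0% and 3.15%, to 7.22% with voom, and to 4.09% and 3.47%. In PGCs against stem cells the number of members went from 5 to 8 with centring, quantile normalization and voom. The share of all genes called went from 33.3% to 31.6%, 27% and 51.2%. The interaction called 1 to 2 leaving out a library. The causes were not tested. A fit of the compared groups alone also has fewer residual degrees of freedom, and the part of this was not tested either.

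Same-numbered libraries did not deviate together (correlations of -0.05 to 0.07 between groups over 14838 genes, apart from 0.24 for pESC and PGC), so the numbers were not taken to pair them. The replicate block took Uhrf1 in PGCs against pESC-PGCLCs to adjusted p = 0.0598, changed no other member's call and took the genes called in pESCs against ESCs from 213 to 78. That last count was 402 with a filter of 1 TPM, 132 with no filter, 122 with quantile normalization, 459 with voom and 0 in the compared groups alone. All genes called in PGCs against ESC-PGCLCs were 3772, and 6140 with a pseudocount of 0.1, 1906 with quantile normalization and 0 in the compared groups alone. In PGCs against pESC-PGCLCs they were 1000, and 1956 with voom and 0 in the compared groups alone. Against stem cells they went from 9080 to 13625 with a pseudocount of 0.1 and 13871 with voom, and voom took ESC-PGCLCs against ESCs from 8122 to 12295 and pESC-PGCLCs against pESCs from 7535 to 11315.
With centring, the share of called genes that were higher went from 21.1% to 84.3% in pESCs against ESCs, from 77% to 43.6% between PGCLCs, from 75.4% to 31.3% in pESC-PGCLCs against pESCs, from 86.4% to 26.2% and from 56.4% to 26.3% in PGCs against ESC-PGCLCs and pESC-PGCLCs, from 75.8% to 35.8% in PGCs against stem cells and from 81.5% to 29.8% for the interaction.

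The values that turned were none of them called. With centring they were 0.0015 (Dnmt1) and 0.047 (Tet1) in pESCs against ESCs, -0.052 (Dnmt3a), -0.043 (Dnmt3b), -0.29 (Uhrf1), -0.23 (Tet3) and -0.21 (Tdg) between PGCLCs, -0.32 (Tet3) in pESC-PGCLCs against pESCs, -0.027 (Dnmt3b), -0.34 (Tet1), -0.087 (Tet3) and -0.41 (Tdg) in PGCs against ESC-PGCLCs, -0.017 (Tet2) in PGCs against pESC-PGCLCs and -0.52 (Dnmt3a), -0.24 (Uhrf1), -0.57 (Tet1) and -0.60 (Tet3) for the interaction. With quantile normalization they were 0.041 (Tet1) in pESCs against ESCs, -0.22 (Uhrf1) between PGCLCs, -0.36 (Tet1) and -0.070 (Tdg) in PGCs against ESC-PGCLCs, -0.018 (Tet2) in PGCs against pESC-PGCLCs and -0.15 (Dnmt3a), -0.15 (Uhrf1), -0.52 (Tet1) and -0.024 (Tet3) for the interaction. With voom they were -0.21 (Dnmt3a), -0.038 (Tet1) and -0.21 (Tet3) for the interaction, and with a pseudocount of 0.1 it was 0.020 (Tdg) in PGCs against pESC-PGCLCs. Leaving out a library gave -0.10 to 0.45 for Tet1 in the interaction, -0.16 to 0.39 (Uhrf1) and -0.020 to 0.43 (Tdg) between PGCLCs, -0.40 to 0.047 for Tet2 in PGCs against ESC-PGCLCs, and -0.044 to 0.40 (Tet2) and -0.23 to 0.22 (Tdg) in PGCs against pESC-PGCLCs.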

Other observations

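The partner genes were also counted in PGCs against the mean of both stem cells, where the median log2 change of all genes was 0.28. Of all tested genes 25.3% rose and 8.06% fell there. Of 10 maintenance partners 6 rose and 1 fell (3 and 2 with centred libraries), with Uhrf2 up by 2.92 and Hells by 2.49, and of 12 DNMT regulators 8 rose and 1 fell (4 and 1 centred). Of 12 TET partners and cofactor genes 3 rose and 3 fell (0 and 5 centred), and of 15 base excision repair genes 8 rose and 1, Apex1, fell (3 and 5 centred). Of 8 readers of methylated CpG 5 rose and none fell (2 and 0 centred), Zbtb33 by 3.75 and Mbd2 by 2.27. Of 4 cytidine deaminases 2 fell, of 13 methionine cycle and folate genes 4 rose and 2 fell (1 and 4 centred), and of 16 S phase genes 7 rose (1 rose and 3 fell centred).

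Between pESCs and ESCs at most 1 gene of each list was called, where 0.781% of all genes were called. Dppa3 was higher in pESCs, at means of 791 against 366 TPM (1.10, limma adjusted p = 0.0435). Nthl1, a glycosylase that removes oxidized pyrimidines, was lower (5.84 against 16.0 TPM, -1.31, adjusted p = 0.0125), and so were Hmces, whose product binds modified cytosine and abasic sites (59.3 against 138 TPM, -1.21, adjusted p = 0.0306), and Mat2a, the gene of a methionine adenosyltransferase (43.9 against 103 TPM, -1.25, adjusted p = 0.0435). With centred libraries Dppa3 stayed called, while Nthl1, Hmces and Mat2a were at -0.98, -0.88 and -0.91, under 2-fold. Under quantile normalization none of these 4 was called (1.03, -0.92, -0.93 and -0.90 for Dppa3, Nthl1, Hmces and Mat2a).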
